A study of Populus tremula x Populus alba with 4 samples.

Results

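A set of 8 genes that regulate the vascular cambium were followed in bark of MIR15 transgenic and wild-type poplar. They are the paralog pairs PXYa and PXYb, WOX4a and WOX4b, and ARBORKNOX1 with its paralog, together with the single genes ARBORKNOX2 and AIL1. They were chosen by transcript ID, and all 8 of the 8 IDs were among the 41335 in the files. No gene names accompany the IDs in the files, so the names used here are those of the member list and were not checked against an annotation. All 8 passed the filter on low read counts.

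Bark RNA was sequenced from clone INRA 717-1B4, a hybrid poplar of the parentage Populus tremula x Populus alba, with 2 libraries from MIR15 transgenic plants and 2 from wild-type plants (WT). All plants were propagated aseptically and then moved to soil in a growth chamber under long days. The labels call the libraries of each genotype biological replicates, and they do not give the promoter of the MIR15 construct, its target, or whether the MIR15 replicates came from separate lines. Library totals were 68453851 and 69747662 reads in MIR15, against 82789893 and 77052567 reads in wild type.

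The cambium is the thin layer of dividing cells between phloem and xylem, and bark is commonly peeled along it. In Arabidopsis, the phloem releases the TDIF peptide, the receptor kinase PXY on cambial cells perceives it, and the transcription factor WOX4 acts downstream to keep these cells dividing. In poplar, the class I KNOX homeobox proteins ARBORKNOX1 and ARBORKNOX2 act in the cambial zone, where they influence the balance between cell division and differentiation, and AIL1, an AINTEGUMENTA-like factor, is tied to cell proliferation during growth.

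Every bark library carried transcript of every one of these regulators. Read counts per gene and library ran from 3332 to 51353, so counting intervals were narrow. Levels are given in CPM, the reads of a gene per 1000000 total gene reads of its library. CPM is not divided by transcript length, so levels are compared between libraries and not between genes. At most 0.165% of the reads of any of these genes matched more than 1 place, against 5.29% to 6.46% of all reads in a library, so the copies of each pair were counted almost wholly from unique reads.

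PXY encodes the receptor kinase for the TDIF peptide. PXYa (Potri.003G107600.1) had 362 and 244 CPM in the MIR15 libraries, against 297 and 325 CPM in the wild-type libraries. The MIR15 libraries lay on either side of both wild-type libraries, so the groups overlapped, and the mean was 303 ± 83.6 CPM in MIR15 and 311 ± 19.8 CPM in wild type (SD, n = 2 each). PXYb (Potri.001G126100.1) had 213 and 154 CPM in MIR15, against 202 and 220 CPM in wild type. Its groups overlapped too: MIR15 replicate 1 lay between the wild-type libraries and MIR15 replicate 2 below both. MIR15 replicate 2 was thus the lowest library for both receptor copies, at 0.744 times the mean of the other 3 libraries for PXYa and 0.725 times for PXYb.

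WOX4 encodes the homeobox transcription factor downstream of PXY. WOX4a (Potri.014G025300.1) had 102 and 93.5 CPM in MIR15, against 102 and 109 CPM in wild type. The groups did not overlap, although MIR15 replicate 1 and wild-type replicate 1 were nearly level. WOX4b (Potri.002G124100.1) had 48.7 and 52.6 CPM in MIR15, against 47.3 and 52.3 CPM in wild type. For this copy the groups overlapped, and MIR15 replicate 2, the lowest library for PXYa, PXYb and WOX4a, was the highest.

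ARBORKNOX1 is the class I KNOX gene of poplar that is related to SHOOT MERISTEMLESS of Arabidopsis. ARBORKNOX1 (Potri.011G011100.1) had 86.4 and 65.5 CPM in MIR15, against 81.0 and 88.0 CPM in wild type. Its groups overlapped through MIR15 replicate 1, and MIR15 replicate 2 was lowest. The paralog (Potri.004G004700.1) had 71.6 and 57.0 CPM in MIR15, against 72.8 and 82.9 CPM in wild type. Here the MIR15 libraries were the lowest of the 4, by a narrow margin for MIR15 replicate 1. MIR15 replicate 2 stood at 0.770 times the mean of the other 3 libraries for ARBORKNOX1 and at 0.753 times for the paralog.

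ARBORKNOX2 and AIL1 followed another order of libraries. ARBORKNOX2 (Potri.002G113300.1), a class I KNOX gene related to BREVIPEDICELLUS of Arabidopsis, had 601 and 535 CPM in MIR15, against 620 and 534 CPM in wild type. AIL1 (Potri.002G114800.1) had 116 and 102 CPM in MIR15, against 123 and 98.9 CPM in wild type. For both genes the wild-type libraries were the highest and the lowest, so the groups overlapped, and replicate 1 exceeded replicate 2 in each genotype. MIR15 replicate 2 was not the lowest library for ARBORKNOX2, AIL1 or WOX4b, although for ARBORKNOX2 it was nearly level with wild-type replicate 2.

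**Figure D1:**
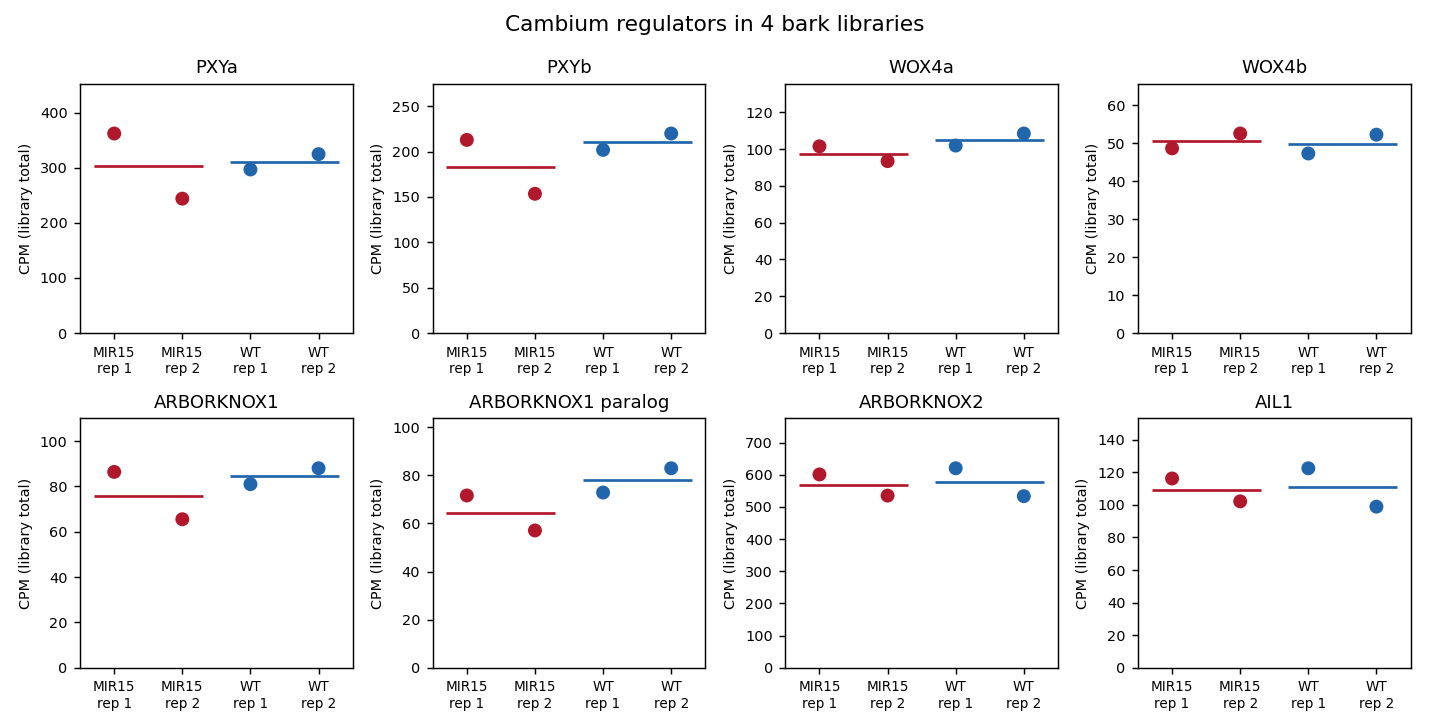
Level of each regulator in CPM (reads per 1000000 of the library total, vertical axis from 0) in the MIR15 (red) and wild-type (WT, blue) libraries; points are libraries and horizontal lines group means of 2 libraries. The point of MIR15 replicate 2 is the lowest for PXYa, PXYb, WOX4a, ARBORKNOX1 and its paralog. Wild-type replicate 2 is the lowest for AIL1 and, nearly level with MIR15 replicate 2, for ARBORKNOX2.

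Summed over the 8 genes, reads of cambium regulators made up 0.160% and 0.130% of all gene reads in the MIR15 libraries, against 0.154% and 0.151% in the wild-type libraries. The 95% exact binomial interval, which covers counting error only, was 0.130% to 0.131% for MIR15 replicate 2 and 0.150% to 0.152% for wild-type replicate 2. The sum was 1452 ± 210.1 CPM in MIR15 and 1527 ± 25.2 CPM in wild type (SD, n = 2 each), a ratio of 0.951 that is smaller in size than the difference between the MIR15 libraries. Without MIR15 replicate 1 the log2 ratio of the sums, -0.07 over all libraries, was -0.23, and without MIR15 replicate 2 it was 0.07. ARBORKNOX2 supplied 37.6% and 41.1% of the summed reads in MIR15 and 40.2% and 35.4% in wild type. Without it, the sum was 999.7 and 768 CPM in MIR15, against 924 and 976 CPM in wild type. In bulk tissue, fewer cambial cells and less of these transcripts per cell cannot be told apart.

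Whether cambial transcript varied between libraries of a genotype was examined by setting replicate 1 over replicate 2. With 1 library on each side, there was no test. No label ties the replicate numbers of MIR15 to those of wild type, so like or unlike directions in the genotypes carry no meaning. In MIR15, 7 of 8 genes were higher in replicate 1. Of all genes tested, 22.6% were higher in replicate 1 in MIR15 and lower in wild type, and 23.5% were higher in both genotypes. The median ratio of replicate 1 to replicate 2 in MIR15 was 1.19 (log2 0.26) for the regulators. The median log2 ratio was -0.03 over all 30975 genes tested and 0.014 over those at or above the mean level of WOX4b. Differences past 1.2-fold, a size chosen with the values known, were found for 4 of 8 genes in MIR15, against 47.6% of all genes tested and 30.1% of the 4967 tested genes at or above the mean level of WOX4b, the gene with the fewest reads here. In wild type, 2 of 8 genes were higher in replicate 1, both of them also higher there in MIR15, and the median was 0.919-fold (log2 -0.12). The wild-type median log2 ratio was -0.03 over all genes tested and -0.0016 over those at or above the level of WOX4b. In wild type, 1 of 8 genes passed 1.2-fold, against 45.2% of all genes tested and 29.4% of those at or above the level of WOX4b. The share of regulators past 1.2-fold in MIR15 was thus near that of all genes tested and above that of genes at or above the level of WOX4b. In wild type it was below both. The set at or above the level of WOX4b has no upper limit, so it is not matched to the regulators in level. In size, the median log2 ratio of the regulators was 0.26 in MIR15, against 0.17 over genes at or above the level of WOX4b, and 0.14 in wild type, against 0.16.

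The largest of these differences belonged to the receptor genes. PXYa was 1.48-fold higher in MIR15 replicate 1 than in MIR15 replicate 2 (95% counting interval 1.46 to 1.51). A difference at least that large, in either direction, was found in 19.2% of all genes tested and in 4.81% of those at or above the level of WOX4b. For PXYb the same ratio was 1.39 (1.35 to 1.42), for ARBORKNOX1 1.32 (1.27 to 1.37) and for its paralog 1.25 (1.20 to 1.31). In that order, 25.1%, 31.1% and 39.0% of all genes tested differed at least as much. Among genes at or above the level of WOX4b, 8.70%, 14.1% and 21.0% did. PXYa, PXYb, ARBORKNOX1 and its paralog are the 4 genes past 1.2-fold in MIR15. The paralog lies nearest to that limit among them, and AIL1, at 1.14 (1.10 to 1.17), nearest among the rest. In wild type the receptor genes and the ARBORKNOX1 pair were lower in replicate 1 and differed by less. Their ratios ran from 0.878 for the paralog of ARBORKNOX1 to 0.920 for ARBORKNOX1.

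AIL1 was the gene past 1.2-fold in wild type, with a ratio of replicate 1 to replicate 2 of 1.24 (1.20 to 1.28). In wild type, 39.0% of all genes tested and 23.2% of those at or above the level of WOX4b differed at least as much. ARBORKNOX2 had a ratio of 1.16 (1.15 to 1.18) in wild type and of 1.12 (1.11 to 1.14) in MIR15. WOX4a and WOX4b stayed within 1.2-fold in both genotypes, at 1.09 and 0.926 in MIR15 and at 0.940 and 0.905 in wild type. All 16 intervals leave out a ratio of 1, but they cover counting error only and not the spread between plants.

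**Figure D2:**
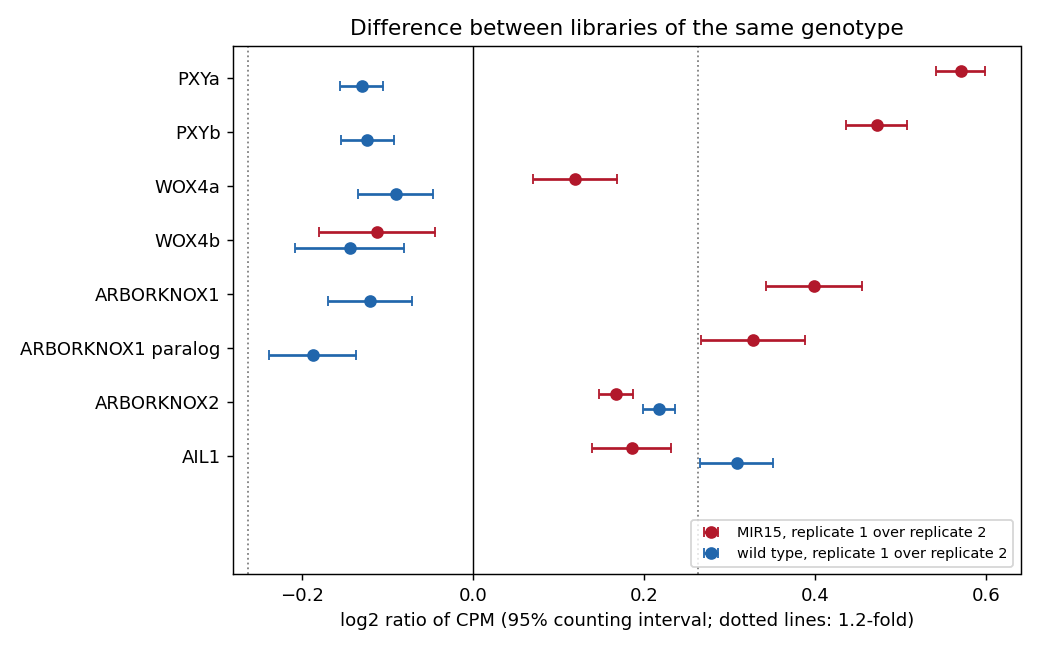
Log2 ratio of replicate 1 to replicate 2 for each regulator within MIR15 (red) and within wild type (blue), with 95% exact counting intervals as bars; dotted lines mark 1.2-fold. PXYa reaches 0.57 in MIR15 and lies at -0.13 in wild type, whereas ARBORKNOX2 and AIL1 lie above 0 in both genotypes.

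The 8 regulators did not share a single order of libraries. PXYa, PXYb, WOX4a, ARBORKNOX1 and its paralog, 5 of 8, were higher in replicate 1 within MIR15 and lower in replicate 1 within wild type, an order found in 22.6% of all genes tested and in 24.2% of those at or above the level of WOX4b. ARBORKNOX2 and AIL1, 2 of 8, were higher in replicate 1 within both genotypes, as were 23.5% of all genes tested and 28.1% of those at or above the level of WOX4b. MIR15 replicate 2 was the lowest of the 4 libraries for 5 of 8 regulators, against 22.2% of all genes tested and 21.1% of those at or above the level of WOX4b. Wild-type replicate 2 was the highest for 4 of 8, against 32.9% and 27.5%. These orders were chosen with the values of the regulators known, so the shares describe them and do not test them. Both copies of the PXY and ARBORKNOX1 pairs are among the 5 genes. Relative to the PXY pair, AIL1 took 16.8% and 20.4% of the reads of these 3 genes in MIR15, against 19.7% and 15.4% in wild type. The WOX4 pair took 20.7% and 26.9% of the reads of the WOX4 and PXY pairs in MIR15, against 23.0% and 22.8% in wild type, so MIR15 replicate 2 held the most WOX4 reads per PXY read.

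Within the paralog pairs, the balance between copies changed little. PXYa supplied 63.0% (95% exact binomial interval 62.5% to 63.5%) and 61.4% (60.8% to 62.0%) of the reads of its pair in MIR15, against 59.5% (59.0% to 60.0%) and 59.6% (59.2% to 60.1%) in wild type. Both MIR15 shares lay above both wild-type shares. The intervals of the genotypes did not touch, but they cover counting error only and not the spread between plants. How often other gene pairs show such an order was not counted. ARBORKNOX1 supplied 54.7% and 53.5% of the reads of its pair in MIR15, against 52.7% and 51.5% in wild type, where the interval of MIR15 replicate 2 (52.4% to 54.5%) overlapped that of wild-type replicate 1 (51.8% to 53.5%). WOX4a supplied 67.6% and 64.0% of the WOX4 reads in MIR15, against 68.3% and 67.5% in wild type, with MIR15 replicate 1 between the wild-type values. These differences in share were not tested.

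**Figure D3:**
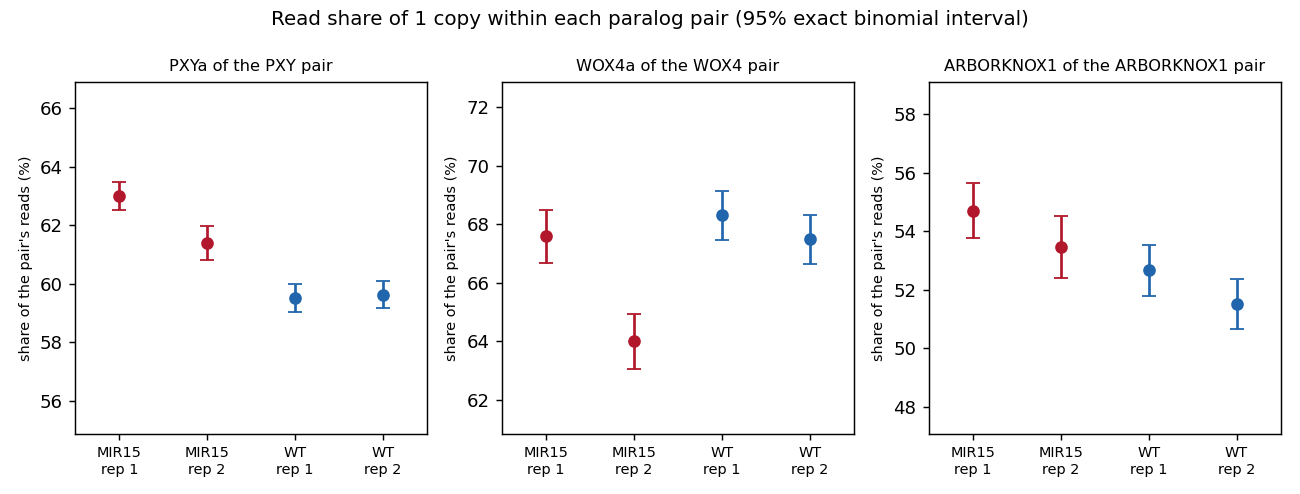
Share of a pair's reads, in percent, taken by PXYa, WOX4a and ARBORKNOX1 in the MIR15 (red) and wild-type (WT, blue) libraries, with 95% exact binomial intervals as bars; each vertical axis spans 12 percentage points and does not start at 0. The PXYa shares of 63.0% and 61.4% in MIR15 lie above the 59.5% and 59.6% of wild type; the ARBORKNOX1 shares in MIR15 also lie above those of wild type, with intervals that overlap, and the WOX4a shares of the groups overlap.

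Between MIR15 and wild type, with 2 libraries per group, none of the 8 regulators was called as changed. All genes were fitted together with edgeR's quasi-likelihood test on total gene reads, with p-values adjusted by the Benjamini-Hochberg method over the 30975 genes tested, of which 0.00323% passed an adjusted p of 0.05. Of the 8 regulators, 0 passed, and 0 had an unadjusted p under 0.05, against 2.47% of all genes tested; DESeq2 also called 0 of 8. In 2 of 8 genes, WOX4a and the paralog of ARBORKNOX1, the groups did not overlap and MIR15 was the lower one, against 13.9% of all genes tested, and in 0 of 8 it was the higher one without overlap, against 11.1%. The log2 fold changes of MIR15 over wild type ran from -0.25 to 0.04, with 1 above 0 and 7 below. Among the 7, PXYa, ARBORKNOX2 and AIL1 lay almost at 0, at -0.01, -0.0035 and -0.0018. The median of the 8 was -0.05, against -0.00083 over all genes tested, which also lies below 0. In size, the median was 0.07, against 0.13 over all genes tested and 0.08 over those at or above the level of WOX4b.

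The paralog of ARBORKNOX1 had the largest difference, with 64.3 ± 10.3 CPM in MIR15 and 77.9 ± 7.13 CPM in wild type (SD, n = 2 each). Its log2 fold change was -0.25 ± 0.17 (SE; 95% interval -0.65 to 0.15), with an edgeR adjusted p of 1.00. PXYb followed with 183 ± 42.01 CPM in MIR15 and 211 ± 12.8 CPM in wild type (SD, n = 2 each) and a log2 fold change of -0.18 ± 0.20 (SE; -0.65 to 0.29). For ARBORKNOX1 the log2 fold change was -0.13 ± 0.18 (SE), for WOX4a it was -0.09 ± 0.15 (SE) and for WOX4b 0.04 ± 0.14 (SE). PXYa, ARBORKNOX2 and AIL1 had log2 fold changes of -0.01 ± 0.22, -0.0035 ± 0.19 and -0.0018 ± 0.18 (SE), and the sign of the AIL1 value turns under RLE size factors, DESeq2 and the replicate block. Each of the 8 adjusted p-values was 1.00 in edgeR. Among the 8 genes, the lowest bound of a 95% interval was 0.635-fold, for PXYb, and the highest was 1.43-fold, for PXYa. The interval of each gene is narrower than that range, such as 0.822-fold to 1.29-fold for WOX4b. Differences within the interval of a gene are not excluded for it by these libraries.

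The sign of the genotype difference depended on which library was kept for 6 of the 8 genes, all but WOX4a and the paralog of ARBORKNOX1. The share of all genes tested whose sign turns in this way was not counted, so the count does not set the regulators apart. PXYa had a log2 fold change of -0.34 without MIR15 replicate 1 and of 0.26 without MIR15 replicate 2, and of 0.04 without wild-type replicate 2. The same values were -0.45 and 0.05 for PXYb, and -0.36 and 0.07 for ARBORKNOX1. For its paralog they were -0.44 and -0.08, so its sign held. The median over the 8 genes was -0.26 without MIR15 replicate 1 and 0.06 without MIR15 replicate 2, with no edgeR call among the 8 genes in either case. ARBORKNOX2 had -0.11 without MIR15 replicate 1 and 0.10 without MIR15 replicate 2, and 0.13 when wild-type replicate 1 was left out and -0.12 when wild-type replicate 2 was. AIL1 had -0.11 and 0.11 without these MIR15 libraries in turn, and 0.18 and -0.16 without these wild-type libraries in turn. WOX4b turned to -0.01 without wild-type replicate 1.

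**Figure D4:**
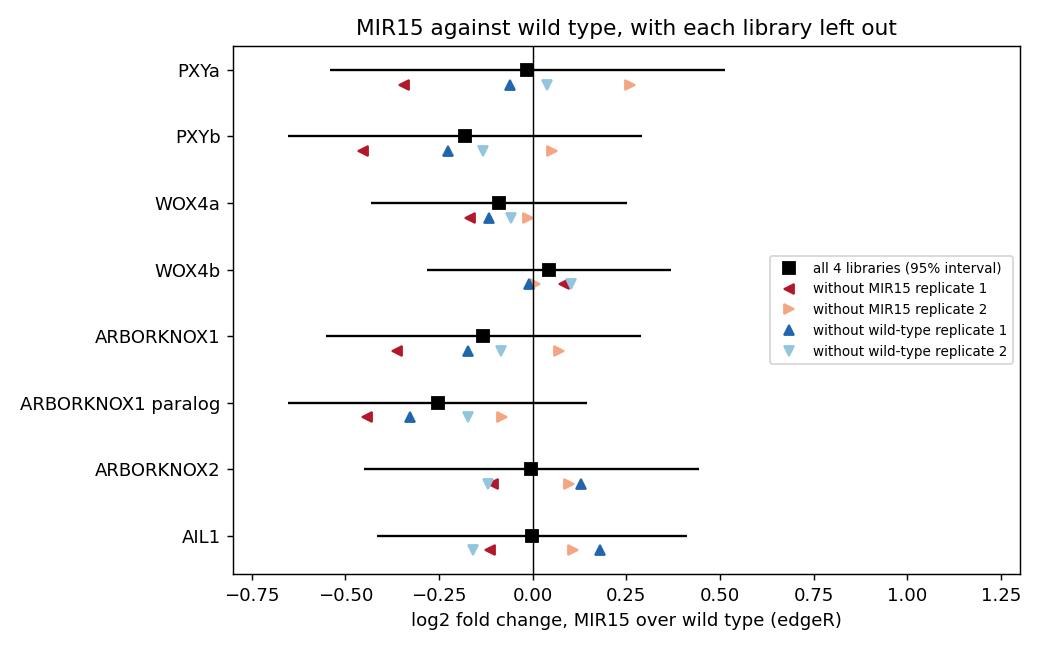
Log2 fold change of MIR15 over wild type from edgeR for each regulator: squares with bars give the fit on 4 libraries with its 95% interval, and triangles the fits with a single library left out. All 8 bars cross 0, and for PXYa the value moves between -0.34 and 0.26 with the MIR15 library that is left out.

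Transcripts of dividing cells and of tissues beside the cambium were read from 9 IDs. These were written down as markers from general knowledge of poplar gene models, and their identity was not checked against an annotation. All 9 passed the filter and 0 of 9 were called as changed in edgeR (adjusted p = 1.00 each). The ID listed for phloem, Potri.004G081300.1, had 124 and 105 CPM in MIR15, against 102 and 119 CPM in wild type. It was higher in replicate 1 within MIR15 and lower in replicate 1 within wild type, the same directions as in the receptor genes. The ID listed for expanding xylem, Potri.001G240900.1, had 432 and 372 CPM in MIR15, against 447 and 423 CPM in wild type, and was also lowest in MIR15 replicate 2.

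The 5 IDs listed for cellulose synthases of the secondary wall, which phloem fibres of bark share with xylem, summed to 490.3 and 513 CPM in MIR15, against 574 and 414 CPM in wild type. Their sum was thus lowest in wild-type replicate 2, as were AIL1 and, by a narrow margin, ARBORKNOX2. Potri.011G069600.1 alone of the 5 was lowest in MIR15 replicate 2, with 27.2 CPM there, against 28.4 CPM in wild-type replicate 2. Potri.018G103900.1, the ID of this list with the smallest p, had 102 and 105 CPM in MIR15, against 114 and 84.9 CPM in wild type. The ID listed for cell division, Potri.016G142800.1, had 20.8 and 21.1 CPM in MIR15, against 20.6 and 17.9 CPM in wild type, and that listed for xylem cell death, Potri.011G044500.1, had 3.32 and 3.37 CPM, against 3.15 and 3.45 CPM in wild type. Neither of these was low in MIR15 replicate 2. How closely the bark was peeled is not given in the labels, and its part in the differences between libraries was not tested.

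Genes whose IDs stand beside those of the regulators were read in the same way. With 10 genes on each side by ID number, the median log2 fold change of MIR15 over wild type ran from -0.05, around ARBORKNOX1, to 0.08, around WOX4b. Between the MIR15 libraries, PXYa, the regulator with the largest ratio there, had a log2 ratio of replicate 1 to replicate 2 of 0.57. Its 20 neighbours had a median of -0.0045 (SD over genes 0.40). Between the wild-type libraries the values were -0.13 for PXYa and -0.11 (SD over genes 0.27) for these neighbours. Chosen for its ratio, PXYa does not stand for the other regulators. The genes most like the regulators were sought by the root-mean-square difference of centred log2 CPM from the mean profile of the 8, over 4 libraries. The nearest 3 of 25922 genes were Potri.002G062300.1, Potri.010G056500.1 and Potri.004G075400.1, within 0.0079 log2 units. As 13.1% of these genes lay as near as the median regulator did, at 0.10 log2 units, this likeness over 4 libraries does not single out any gene.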

How the data were processed

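Per the file headers, the authors deposited, for each transcript ID, CLC counts of unique and of total gene reads and a DESeq normalised signal. The deposited signal is a fixed multiple of the total gene reads within each library, between 0.898 and 1.10, and served only for this check. The submitters' processing notes name DESeq; aligner settings, genome build, annotation and the placing of reads that match several genes are not given in those sources.

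Sample titles gave the groups and replicate numbers; the numbers in the headers of the MIR15 files differ from them. The test, on total gene reads, used edgeR 4.0.16 (R 4.3.3): filterByExpr, TMM, quasi-likelihood F test, two-sided, genotype as sole term. SE and 95% intervals were derived from the F statistic. Levels are reads per 1000000 of the library total, without TMM. Ratios of 2 libraries have exact conditional binomial intervals and shares exact Clopper-Pearson intervals. The fit was tested on simulated data. P-values rest on 2 libraries per group. No 2 libraries of a genotype agreed within sampling noise (chi-square per degree of freedom 66.6 in MIR15 and 91.2 in wild type).

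The members and lists were chosen with earlier results of these data known. The named genes are the 8 members, the marker ID with the smallest p in each list, and the 3 genes nearest in profile. Lists written as name patterns (further cambium pathway genes, periderm, green tissue) could not be filled and were not analysed here. Alternatives were RLE factors, library totals alone, a filter at 5 CPM on average or none at all, DESeq2 1.42.0, unique gene reads, the replicate number as a block, and each library left out; TMM for the summed level was chosen after seeing the data.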

Additional observations from a re-analysis of the deposited data

How the results depend on the processing

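The 8 regulators gave 0 calls under each of the 11 alternatives, in which the smallest unadjusted p was 0.0536, for the paralog of ARBORKNOX1 without MIR15 replicate 1. Against 1 called gene of 30975 in the edgeR fit, the filter at a mean of 5 CPM gave 0 (389 of 20097 genes at an unadjusted p under 0.05). Unique gene reads gave 0 (768 of 30531). DESeq2 gave 14, but on 37220 genes, without the edgeR filter on low read counts. Leaving out single libraries gave 0 to 8 called genes: 8 when wild-type replicate 1 was left out, and 0 without either of the MIR15 libraries, replicate 1 or 2 (882 and 1351 at an unadjusted p under 0.05), the lone library of a group being assumed to vary like the other group. A replicate block on the title number led to 120 calls in edgeR, 0 of them among the 8 regulators. Deviations of libraries with the same number correlated at 0.25 over 25930 genes, but no label ties the numbers to a shared origin, so no pairing was assumed.

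The log2 fold change of AIL1 was -0.0018, and 0.00069 with RLE factors, 0.00037 with DESeq2 and 0.0041 with the replicate block. Leaving out single libraries gave -0.16 to 0.18 for AIL1, -0.12 to 0.13 for ARBORKNOX2, -0.34 to 0.26 for PXYa, -0.45 to 0.053 for PXYb, -0.36 to 0.071 for ARBORKNOX1 and -0.011 to 0.10 for WOX4b. The median over the 8 regulators ran from -0.26 to 0.062 and the log2 ratio of the sums from -0.23 to 0.068. The cause of these shifts was not tested. Under TMM, RLE factors and unique reads, the median log2 ratio of replicate 1 to replicate 2 kept its sign, at 0.25 to 0.29 in MIR15 (0.26 on library totals) and -0.12 to -0.089 in wild type (-0.12 on library totals). Each regulator had at least 3332 reads in each library, and no fit was run at other depths or with more libraries.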
